A study of Schizosaccharomyces pombe with 14 samples.

Results

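In fission yeast (Schizosaccharomyces pombe), thiamine (vitamin B1) in the medium turns a small group of genes down, and 7 of them, nmt1, thi1, thi2, thi4, thi9, pho4 and bsu1, were followed through long-term phosphate starvation. They were chosen by name: the 7 symbols were looked up in the gene names of the authors' deposited table for maf1Δ against wild type at 0 h and joined by systematic identifier to the table of counts, which holds 6988 identifiers. All 7 were found (nmt1 is SPCC1223.02, thi1 SPAC1486.10, thi2 SPBC26H8.01, thi4 SPAC23H4.10c, thi9 SPAC9.10, pho4 SPBC428.03c and bsu1 SPAC17A2.01), and all 7 passed the filter on low counts. The rule uses names alone, though the genes were picked with earlier results of these data known. The labels name the media and say nothing of their thiamine, so the repression that gives the group its name was not tested in these samples.

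Poly(A)+ RNA was sequenced from 14 groups of 3 libraries each. The strain under test, AGP256, is h+ and carries a natMX cassette (a nourseothricin-resistance marker) in place of maf1, the gene of a repressor of RNA polymerase III, and is called maf1Δ. The wild type, AGP72, is h-. Each strain was sampled at 0 h, growing in log phase in the rich medium YES, and after 4, 8, 12, 24, 36 and 48 h in the phosphate-free medium ePMGT. The labels call 4 to 12 h limited growth and 24 to 48 h quiescence. Medium and phosphate supply change together between 0 h and every later time, and genotype, mating type and sequencing depth change together between the strains, so none of these can be told apart. The 21 maf1Δ libraries held 33249827 to 42808200 counts and the 21 wild-type libraries 12157201 to 26359389.

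Thiamine is assembled from a pyrimidine and a thiazole, each made in its own branch. Nmt1 makes the phosphorylated pyrimidine (4-amino-5-hydroxymethyl-2-methylpyrimidine phosphate), and the product of thi2 makes the thiazole. Thi4, an enzyme with a pair of activities, phosphorylates the thiazole and joins it to the pyrimidine, giving thiamine phosphate. Thi9 imports thiamine across the plasma membrane, and Bsu1 imports vitamin B6. Pho4 is a secreted acid phosphatase (it is not the transcription factor of that name in budding yeast), and Thi1 is a DNA-binding transcription factor that activates thiamine genes. The nmt1 promoter, strongly repressed by thiamine, is a standard tool for switching genes on and off in this yeast.

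The check of the deletion came first. maf1 had 7.13, 6.34 and 6.85 CPM (its counts as a share of the library, after TMM scaling) in the 3 maf1Δ libraries at 0 h, against 23.0, 20.9 and 22.6 CPM in wild type. At 4 to 48 h it had 1.59 to 3.77 CPM in maf1Δ and 73.6 to 106 CPM in wild type. The strains did not overlap at any time. Of the mating-type genes, those of h- cells followed the labels. mam2, a pheromone receptor gene, had 2.26 to 9.60 CPM in maf1Δ and 56.7 to 222 CPM in wild type, and mam3, mfm2 and mfm3 were also lower in every maf1Δ library than in every wild-type library of the same time, as mfm1 was at all times but 0 h. Those of h+ cells followed them at some times and went against them at others. map2, a pheromone gene, had 5.57 to 6.36 CPM in maf1Δ and 106 to 111 CPM in wild type at 0 h, and 5.09 to 6.26 CPM in maf1Δ and 7.58 to 8.95 CPM in wild type at 4 h, against the labels at both. At 8 to 48 h it had 12.3 to 32.6 CPM in maf1Δ and 8.20 to 12.2 CPM in wild type, higher in maf1Δ at each time. map3, the other receptor gene, was higher in maf1Δ at 0 to 24 h and lower at 36 and 48 h, with 13.2 to 14.5 CPM in maf1Δ and 23.2 to 26.2 CPM in wild type at 48 h. map1, a transcription factor gene of the h+ program, was lower in maf1Δ at all 7 times, with 8.75 to 48.6 CPM in maf1Δ and 29.9 to 94.0 CPM in wild type over the course. The cell types of mam3 and map3 were assigned after their values were seen. The part of this in the results below was not tested; each gene is also described by comparisons that leave out the 0 h libraries. Since CPM are shares of a library, less RNA per cell and fewer cells with the RNA cannot be told apart.

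Levels of different genes were compared per kilobase of transcript, with lengths from RefSeq. At 48 h the means in maf1Δ ran from 3.11 CPM per kb for nmt1, the lowest of the 7, to 77.5 CPM per kb for thi2. In wild type at 48 h nmt1 was the highest, at 186 CPM per kb, followed by thi2 at 78.6 CPM per kb, and thi9 was the lowest, at 19.6 CPM per kb. At 0 h pho4 was the highest in maf1Δ, at 119 CPM per kb, and thi9 the highest in wild type, at 103 CPM per kb. nmt1 was the lowest of the 7 in both strains at 0 h, with 0.351 CPM per kb in maf1Δ and 2.91 CPM per kb in wild type.

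**Figure D1:**
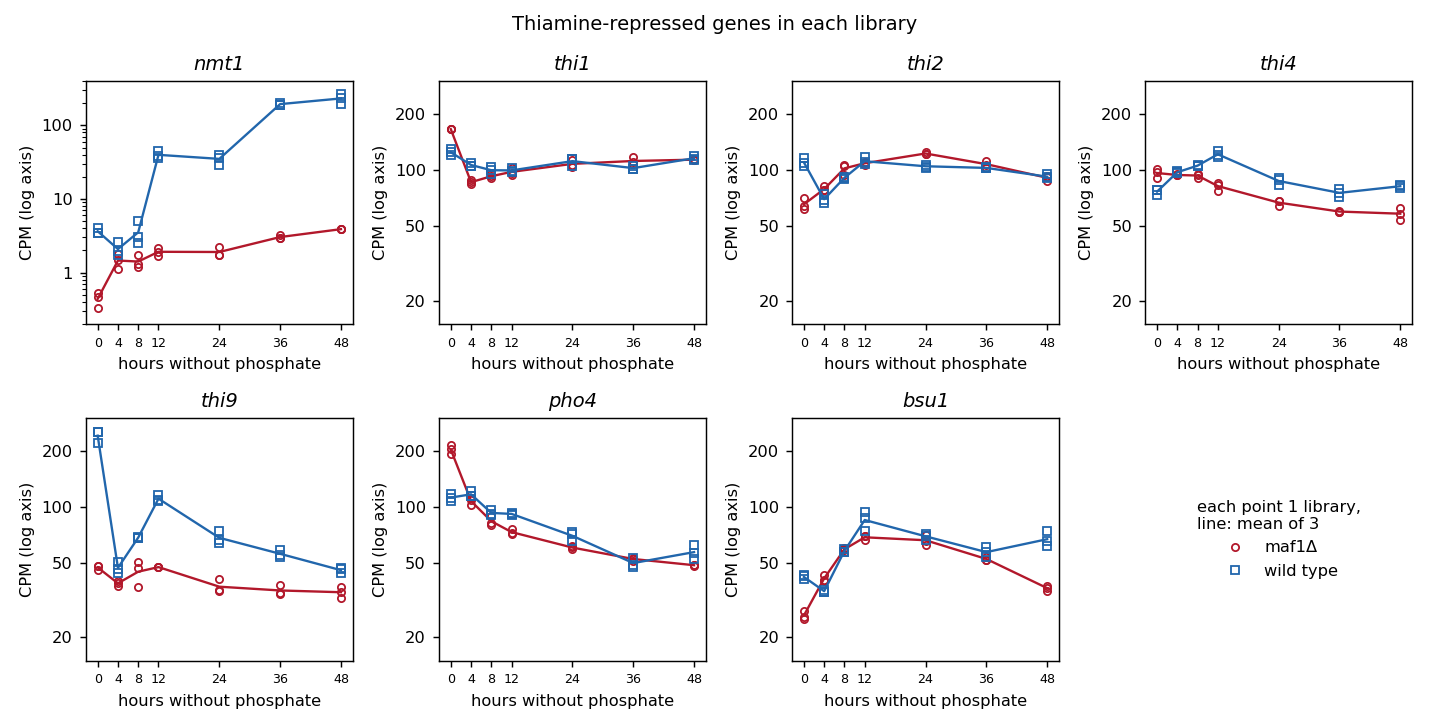
CPM (y axis, log scale) of each of the 7 genes against hours without phosphate (x axis; 0 h is rich medium), 1 point per library, red circles maf1Δ, blue squares wild type, lines through the means of 3 libraries; nmt1 has its own y range. For nmt1 every maf1Δ library stays under 4 CPM, while the wild type reaches a mean of 232 CPM at 48 h; for thi9 the maf1Δ points stay between 32.4 and 50.4 CPM and the wild-type points are highest at 0 h.

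nmt1, the pyrimidine-making enzyme, gave the largest change of the 7. In maf1Δ it was above its 0 h level at every starved time but stayed low. In wild type it was near or below its 0 h level at 4 and 8 h. It then climbed in a pair of steps to a level 63.2-fold above 0 h. The maf1Δ libraries had 0.524, 0.467 and 0.326 CPM at 0 h, 1.12, 1.47 and 1.78 CPM at 4 h, 1.73, 1.19 and 1.31 CPM at 8 h and 2.18, 1.90 and 1.66 CPM at 12 h. They then had 1.71, 1.74 and 2.26 CPM at 24 h, 2.90, 2.97 and 3.23 CPM at 36 h and 3.91, 3.87 and 3.88 CPM at 48 h. All 18 starved maf1Δ libraries lay above the 3 libraries of 0 h, which held only 50 nmt1 counts between them. The wild-type libraries had 4.07, 3.43 and 3.42 CPM at 0 h, 1.95, 2.57 and 1.72 CPM at 4 h and 4.99, 2.55 and 3.02 CPM at 8 h. They had 45.5, 35.9 and 37.8 CPM at 12 h and 39.3, 29.3 and 36.4 CPM at 24 h, and 202, 189 and 192 CPM at 36 h and 267, 233 and 196 CPM at 48 h. The wild type fell into 3 tiers, with no overlap between 0 to 8 h, 12 to 24 h and 36 to 48 h, and with overlap within them between 4 and 8 h, 12 and 24 h, and 36 and 48 h.

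Against its own 0 h, nmt1 was higher in maf1Δ by 3.27-fold at 4 h (log2 1.71, SE 0.31, adjusted p = 6.15e-06 by edgeR's quasi-likelihood test with Benjamini-Hochberg adjustment over all genes). A change was called where that p was under 0.05 and the change at least 2-fold. At 48 h nmt1 in maf1Δ was 8.73-fold higher (log2 3.13, SE 0.26, edgeR adjusted p = 5.66e-14). In wild type the difference at 48 h against 0 h was 5.98 on the log2 scale (SE 0.14, edgeR adjusted p = 2.13e-30), the 29th largest rise among the 6521 genes tested. The wild-type values at 12 and 24 h, 10.9 and 9.55 times those of 0 h, were called as well. At 4 h the wild type was below 0 h without overlap, yet under the 2-fold limit of a call (log2 -0.83, SE 0.23, edgeR adjusted p = 0.00117).

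The steps between starved times, which share 1 medium and leave out 0 h, placed the wild-type climb. nmt1 rose 11.1-fold at 12 h against 8 h (log2 3.47, SE 0.16, edgeR adjusted p = 1.56e-18), the third largest rise of all genes in that interval, and 5.53-fold at 36 h against 24 h (log2 2.47, SE 0.11, edgeR adjusted p = 1.72e-18). No step in maf1Δ passed 2-fold; its largest was 1.61-fold, at 36 h against 24 h (log2 0.69, SE 0.20, edgeR adjusted p = 0.00427), and the libraries of those times did not overlap.

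The mean of nmt1 was lower in maf1Δ than in wild type at all 7 times. At 0 h the mean was 0.439 ± 0.102 CPM in maf1Δ and 3.64 ± 0.375 CPM in wild type (SD, n = 3 each), 8.25-fold lower (log2 -3.04, SE 0.27, edgeR adjusted p = 8.33e-13). At 4 h the strains overlapped, with 1.46 ± 0.333 CPM in maf1Δ and 2.08 ± 0.441 CPM in wild type (SD, n = 3 each), and the difference was not called (edgeR adjusted p = 0.0796). At 8 h it was called (log2 -1.34, SE 0.23, edgeR adjusted p = 7.97e-06), but lost the 2-fold size (log2 -0.99) without wild-type replicate 1 of 8 h, the highest library of that time. From 12 h on the gap was wide: 20.8-fold lower in maf1Δ at 12 h, 18.6-fold at 24 h, 63.9-fold at 36 h and 59.7-fold at 48 h. At 48 h the mean was 3.89 ± 0.0212 CPM in maf1Δ, close to the wild type before starvation, and 232 ± 35.9 CPM in wild type (SD, n = 3 each; log2 -5.90, SE 0.14, edgeR adjusted p = 1.20e-29), the fifth lowest log2 difference among the genes tested.

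The change over time itself differed between the strains. The rise of nmt1 at 24 to 48 h over 0 h was smaller in maf1Δ than in wild type in a test of the interaction (log2 -2.33, SE 0.38, edgeR adjusted p = 1.01e-06). Between 4 to 12 h and 24 to 48 h, with no 0 h library involved, the change was again smaller in maf1Δ (log2 -3.30, SE 0.16, edgeR adjusted p = 5.41e-20). For 4 to 12 h over 0 h the difference ran the other way, larger in maf1Δ, and stayed under the limit of a call (log2 0.97, SE 0.33, edgeR adjusted p = 0.00692). DESeq2 (log2 1.02) and scaling by library size alone (log2 1.25) took it past that limit.

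**Figure D2:**
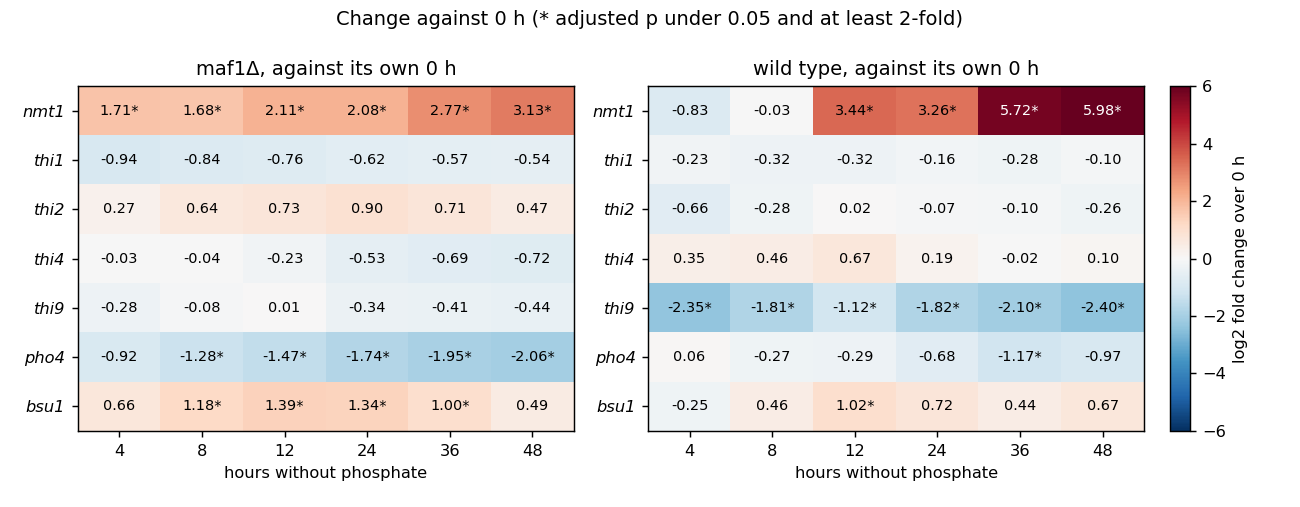
Log2 fold change of each gene (rows) at 4 to 48 h (columns) over the same strain's 0 h, maf1Δ left and wild type right; the colour and the printed value are the edgeR estimate, and a star marks adjusted p under 0.05 with at least 2-fold. Stars stand on nmt1 at 6 times in maf1Δ and 4 in wild type, and on thi9 at 6 times in wild type and none in maf1Δ.

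The genes of the thiazole branch, thi2, and of the joining step, thi4, stayed within 2-fold in every comparison made. thi2 had 61.6, 70.5 and 64.6 CPM in maf1Δ at 0 h, against 116, 105 and 109 CPM in wild type, and these did not overlap (log2 -0.75, SE 0.047, edgeR adjusted p = 4.40e-17). Over the starved times it ranged over 77.8 to 125 CPM in maf1Δ and 66.4 to 117 CPM in wild type. It was higher than at 0 h at all 6 times in maf1Δ, most at 24 h (log2 0.90, SE 0.046, edgeR adjusted p = 5.44e-20), and lower than at 0 h in wild type at 4 h (log2 -0.66, SE 0.049, edgeR adjusted p = 4.25e-15). None of these reached 2-fold, though scaling by library size alone took the difference between the strains at 0 h past it (log2 -1.03), and scaling by protein-coding genes did so for maf1Δ at 24 h against 0 h (log2 1.03). The interaction of strain and time was positive for 4 to 12 h and for 24 to 48 h over 0 h (log2 0.85, SE 0.054, edgeR adjusted p = 9.36e-17; log2 0.84, SE 0.055, edgeR adjusted p = 1.06e-16), below the limit of a call. Without the 0 h libraries, the interaction for 24 to 48 h over 4 to 12 h was not called (edgeR adjusted p = 0.799), and the strains lay within 1.17-fold of each other at 4 to 48 h.

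thi4 had 62.5, 58.6 and 54.3 CPM in maf1Δ at 48 h, against 90.4, 98.2 and 101 CPM at 0 h, a decline spread over 12 to 48 h (log2 -0.72, SE 0.045, edgeR adjusted p = 1.84e-17). In wild type it peaked at 12 h, with 127, 117 and 121 CPM against 73.8, 77.9 and 78.3 CPM at 0 h (log2 0.67, SE 0.046, edgeR adjusted p = 5.80e-16), and was back to 75.4, 71.7 and 79.7 CPM at 36 h. From 12 h on every maf1Δ library lay below every wild-type library of the same time, by 1.26- to 1.48-fold, so the difference exceeded the replicate spread without reaching 2-fold. cdb4, which lies on the opposite strand and overlaps thi4, had 115 CPM in maf1Δ at 48 h and 601 CPM at 0 h, and 75.0 CPM in wild type at 12 h and 452 CPM at 0 h. Whether its reads enter the count of thi4 was not tested.

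thi9, the thiamine importer, was called lower than at 0 h at every starved time in wild type and at none in maf1Δ. The maf1Δ libraries had 47.9, 48.1 and 46.1 CPM at 0 h, 39.2, 39.9 and 37.7 CPM at 4 h, 50.4, 47.3 and 37.2 CPM at 8 h and 47.8, 47.4 and 47.4 CPM at 12 h. They had 35.8, 40.8 and 35.5 CPM at 24 h, 38.3, 34.6 and 34.1 CPM at 36 h and 34.9, 32.4 and 37.4 CPM at 48 h. The whole course of maf1Δ lay between 32.4 and 50.4 CPM, and none of its 6 comparisons with 0 h was called. The libraries of 4, 24, 36 and 48 h nevertheless lay below those of 0 h without overlap, by less than 2-fold and most at 48 h (log2 -0.44, SE 0.074, edgeR adjusted p = 1.33e-06). The wild-type libraries had 251, 219.9 and 250.3 CPM at 0 h, 44.4, 46.3 and 50.7 CPM at 4 h, 69.2, 67.8 and 68.4 CPM at 8 h and 116, 109 and 107 CPM at 12 h. They had 73.8, 64.2 and 66.8 CPM at 24 h, 53.9, 55.3 and 58.9 CPM at 36 h and 46.3, 44.0 and 47.0 CPM at 48 h. The 0 h libraries stood above all 18 starved ones, and among these the 12 h libraries were the highest.

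In wild type thi9 was lower than at 0 h at all 6 times, by 5.11-fold at 4 h (log2 -2.35, SE 0.075, edgeR adjusted p = 3.10e-26), 2.18-fold at 12 h and 5.26-fold at 48 h (log2 -2.40, SE 0.077, edgeR adjusted p = 2.65e-26). Among starved times no step reached 2-fold; the largest were a 1.61-fold higher level at 12 h against 8 h and a 1.62-fold lower level at 24 h against 12 h (edgeR adjusted p = 1.45e-09 and 1.36e-09). Neither pair of times overlapped.

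maf1Δ had less thi9 than wild type at all 7 times, with no overlap of libraries at any of them. The gap was 5.08-fold at 0 h, where the mean was 47.4 ± 1.13 CPM in maf1Δ and 240.5 ± 17.8 CPM in wild type (SD, n = 3 each; log2 -2.35, SE 0.072, edgeR adjusted p = 1.68e-26). It was also called at 12 h, at 2.33-fold (log2 -1.22, SE 0.073, edgeR adjusted p = 4.45e-16). At the other 5 times it lay between 1.21-fold (4 h) and 1.83-fold (24 h), under the limit of a call. The interaction was positive for 4 to 12 h and for 24 to 48 h over 0 h (log2 1.65, SE 0.083, edgeR adjusted p = 8.14e-20; log2 1.71, SE 0.084, edgeR adjusted p = 2.42e-20). Between 4 to 12 h and 24 to 48 h, without the 0 h libraries, the strains' changes differed by 0.06 on the log2 scale (SE 0.062, edgeR adjusted p = 0.365).

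bsu1, the vitamin B6 importer, was higher at 12 h than at either end of the course in both strains. In maf1Δ it had 27.8, 25.0 and 25.8 CPM at 0 h, 69.5, 70.0 and 66.5 CPM at 12 h and 35.6, 36.7 and 37.8 CPM at 48 h. In wild type it had 42.4, 43.1 and 40.9 CPM at 0 h, 93.6, 73.8 and 87.7 CPM at 12 h and 65.8, 61.7 and 73.9 CPM at 48 h. The means of both strains peaked at 12 h, and at 48 h the maf1Δ libraries lay below all 3 of wild type. In maf1Δ bsu1 was called higher than at 0 h at 8, 12, 24 and 36 h, most at 12 h (log2 1.39, SE 0.062, edgeR adjusted p = 6.54e-22). The call at 36 h (log2 1.00) stood at the 2-fold limit. It was lost with no filter on low counts (log2 0.96) and on leaving out some single libraries. In wild type bsu1 was called at 12 h and at no other time (log2 1.02, SE 0.063, edgeR adjusted p = 1.58e-17), again at the 2-fold limit. That call was lost under scaling by library size (log2 0.78) and by protein-coding genes (log2 0.97). It was also lost under DESeq2 (log2 0.995), with no filter (log2 0.993) and on leaving out some single libraries (log2 down to 0.947). Against wild type, bsu1 in maf1Δ was lower at 0 h and at 48 h without overlap (log2 -0.68, SE 0.064, edgeR adjusted p = 2.84e-12; log2 -0.87, SE 0.063, edgeR adjusted p = 5.08e-15), under 2-fold at both.

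pho4, the secreted acid phosphatase, was lower late in starvation than at 0 h in both strains. In maf1Δ it had 203, 214 and 191 CPM at 0 h, 103, 109 and 111 CPM at 4 h, 75.6, 71.9 and 72.1 CPM at 12 h, 60.9, 61.4 and 59.3 CPM at 24 h and 49.0, 48.5 and 48.6 CPM at 48 h. In wild type it had 108, 118 and 111 CPM at 0 h, 114, 114 and 122 CPM at 4 h, 91.8, 90.0 and 93.2 CPM at 12 h, 71.2, 65.5 and 73.1 CPM at 24 h and 56.4, 52.9 and 62.4 CPM at 48 h. The maf1Δ libraries of 0 h were the highest of all 42, and at 4 to 48 h the means of the strains were within 1.25-fold of each other. pho4 fell in maf1Δ at 8, 12, 24, 36 and 48 h, down to 4.16-fold below 0 h (log2 -2.06, SE 0.050, edgeR adjusted p = 2.95e-30). In wild type the fall was called at 36 h (log2 -1.17, SE 0.054, edgeR adjusted p = 2.68e-21). At 48 h (log2 -0.97) it missed the 2-fold limit, which DESeq2 (log2 -1.02) and library size alone (log2 -1.24) took it past. The strains differed by 1.81-fold at 0 h, higher in maf1Δ (log2 0.86, SE 0.048, edgeR adjusted p = 1.05e-18), again under the limit. The decline at 4 to 12 h against 0 h was stronger in maf1Δ (log2 -1.05, SE 0.055, edgeR adjusted p = 2.97e-19), a call that scaling by library size (log2 -0.77) and by protein-coding genes (log2 -0.92) took away. For 24 to 48 h over 4 to 12 h the strains' changes differed by 0.08 on the log2 scale (SE 0.042, edgeR adjusted p = 0.0960).

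thi1, the transcription factor gene, was the steadiest of the 7 during starvation. At 4 to 48 h it had 83.9 to 117 CPM in maf1Δ and 95.5 to 119 CPM in wild type. At 0 h it had 167, 165 and 166 CPM in maf1Δ, against 119.9, 129 and 125 CPM in wild type, and in maf1Δ the 0 h libraries lay above every starved library. In maf1Δ it was lower than 0 h by 1.92-fold at 4 h (log2 -0.94, SE 0.038, edgeR adjusted p = 5.86e-23) and by 1.46-fold at 48 h. In wild type it was lower by 1.17-fold at 4 h and by at most 1.25-fold at any time. No comparison of thi1 was called. The smaller level in maf1Δ at 4 h relative to wild type was outside the replicate spread (log2 -0.31, SE 0.040, edgeR adjusted p = 2.64e-08).

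**Figure D3:**
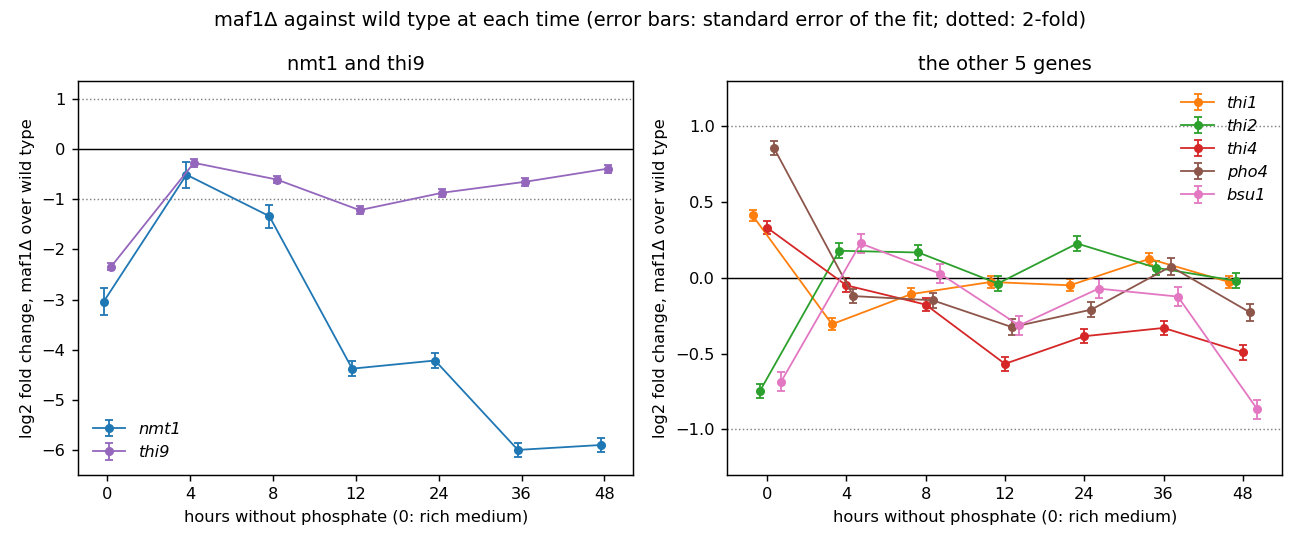
Log2 fold change of maf1Δ over wild type (y axis) at each time (x axis, hours without phosphate), nmt1 and thi9 left and the other 5 genes right on a narrower y range; error bars are the standard errors of the edgeR fit and dotted lines mark 2-fold. nmt1 lies near -6 at 36 and 48 h, and the 5 genes on the right stay within 2-fold at all 7 times.

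Counts over the whole group were set beside those of all 6521 genes tested. For maf1Δ against its own 0 h, 15 of 42 comparisons were called, 10 higher and 5 lower, all of them nmt1, pho4 and bsu1: 1 gene at 4 h, 3 at 8, 12, 24 and 36 h and 2 at 48 h. Of all genes, 30.9%, 36.9%, 39%, 41.7%, 41.4% and 42.3% were called at those times. For wild type against its 0 h, 12 of 42 were called, 5 higher and 7 lower (nmt1, thi9, pho4 and bsu1): 1 gene at 4 and 8 h, 3 at 12 h, 2 at 24 h, 3 at 36 h and 2 at 48 h, where 34.9%, 40.7%, 41.7%, 40.9%, 42.5% and 41.8% of all genes were. At most 3 of 7 were called at any time, a share near or below that of all genes. Their median log2 change lay between -0.44 and 0.01 in maf1Δ and between -0.27 and 0.02 in wild type, and that of all genes between -0.03 and 0.05 over both.

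For maf1Δ against wild type, 8 of 49 comparisons were called, all lower in maf1Δ: nmt1 and thi9 at 0 h, none at 4 h, nmt1 at 8 h, nmt1 and thi9 at 12 h, and nmt1 at 24, 36 and 48 h. The shares of all genes called at 0, 4, 8, 12, 24, 36 and 48 h were 29.7%, 7.97%, 6.81%, 7.74%, 13.2%, 17.9% and 22.5%. Those called lower in maf1Δ were 15.9%, 5.69%, 4.92%, 4.6%, 6.2%, 6.96% and 8.17%. At 4 h, where edgeR called 0 of the 7, 5 had an unadjusted p under 0.05 and DESeq2 also called 0. The group's median log2 difference was -0.68 at 0 h, where all genes had a median of 0.12, and between -0.39 and -0.12 at the later times, where it lay between -0.02 and 0.01 for all genes.

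Between neighbouring starved times, edgeR called 0 of 35 comparisons in maf1Δ (22 had an unadjusted p under 0.05, and DESeq2 called 0 as well) and 2 of 35 in wild type, both nmt1. In maf1Δ 8.02%, 1.87%, 9.83%, 2.96% and 1.73% of all genes were called in the steps to 8, 12, 24, 36 and 48 h. In wild type these shares were 9.49%, 2.93%, 3.31%, 1.55% and 1.18%. The interaction of strain and time was called in 5 of 21 tests: thi9 and pho4 for 4 to 12 h over 0 h, nmt1 and thi9 for 24 to 48 h over 0 h, and nmt1 for 24 to 48 h over 4 to 12 h. Of all genes, 31.2%, 38.2% and 14% were called in these tests.

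The 7 courses were not alike. Over the 14 group means of log2(CPM + 1), which share libraries and scaling, Pearson's r between pairs of the 7 genes ran from -0.63 (thi2 and pho4) to 0.78 (thi2 and bsu1), and r between nmt1 and the other genes from -0.50 (pho4) to 0.52 (bsu1). When the 14 groups were ordered by their mean, neighbouring groups overlapped in 9 of 13 places for nmt1 and thi9, 10 of 13 for thi1 and thi2, 8 of 13 for pho4 and bsu1 and 7 of 13 for thi4. Most neighbours in these orders thus overlapped, but the ordering itself sets the closest means side by side. These counts therefore do not tell whether the groups of a gene differ. The genes whose means followed nmt1 most closely were irc6 (r = 0.94), snoU18 (r = 0.93) and mrpl33 (r = 0.92). Their shape was alike but not their size. Their means spanned only 0.86, 1.36 and 0.65 on this log2 scale, while those of nmt1 ran from 0.439 to 232 CPM. For thi9 the closest genes were the non-coding RNAs SPNCRNA.1299, SPNCRNA.1482 and SPNCRNA.921 (r = 0.92, 0.92 and 0.91). For pho4 they were SPAC1B2.06, mkt1 and pop100 (r = 0.98, 0.98 and 0.97). For bsu1 they were the antisense RNA of cdc7, apn2 and mfs1 (r = 0.94, 0.92 and 0.92). For thi1 they were mep33, rlp24 and utp7 (r = 0.96 each). For thi2 they were cwf29, the antisense RNA of SPCC330.19c and ggt2 (r = 0.92, 0.90 and 0.89), and for thi4 they were SPNCRNA.1609, cdc18 and the antisense RNA of SPAC11D3.14c (r = 0.93, 0.92 and 0.92). None of the 7 genes was among the 3 closest of another.

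Annotated RNAs lie on the opposite strand of nmt1, thi9 and pho4. The strand setting used for counting is not given in the sources used here. Whether reads of a gene enter the count of its antisense partner was not tested. At 48 h nmt1 had means of 3.89 CPM in maf1Δ and 232 CPM in wild type. prl10 (SPNCRNA.1234) covers all of nmt1 and was called in no comparison: it had 19.0, 20.2 and 19.3 CPM in maf1Δ and 38.4, 32.1 and 35.4 CPM in wild type at 48 h, and 27.2, 25.9 and 24.3 CPM in maf1Δ and 24.1, 23.6 and 24.4 CPM in wild type at 0 h. Over all times it stayed between 19.0 and 52.1 CPM in maf1Δ and between 23.6 and 43.5 CPM in wild type. SPNCRNA.743, which overlaps 6.5% of thi9, was highest, as thi9 was, in wild type at 0 h, with 6.39, 6.65 and 4.84 CPM in maf1Δ at 0 h against 33.9, 35.4 and 36.1 CPM in wild type (log2 -2.56, SE 0.12, edgeR adjusted p = 7.42e-21). Over the starved times it had 4.34 to 17.0 CPM in maf1Δ and 6.05 to 20.1 CPM in wild type. Its mean in maf1Δ was highest at 48 h, where that of thi9 was lowest, and in the starved wild type it was highest at 36 h, not at 12 h as for thi9. SPNCRNA.1358, which overlaps 6.7% of pho4, had 16.2, 20.2 and 18.8 CPM in maf1Δ at 0 h against 105, 99.2 and 122 CPM in wild type, the reverse of pho4. At 48 h it had 73.2, 65.2 and 62.4 CPM in maf1Δ and 10.004, 9.38 and 10.9 CPM in wild type (log2 2.74, SE 0.11, edgeR adjusted p = 3.01e-22), while pho4 did not reach 2-fold. The part of these RNAs in the values of nmt1, thi9 and pho4 was not tested. RefSeq also places RNAs opposite thi2, thi9 and bsu1 over most of their length that have no row among the counts.

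**Figure D4:**
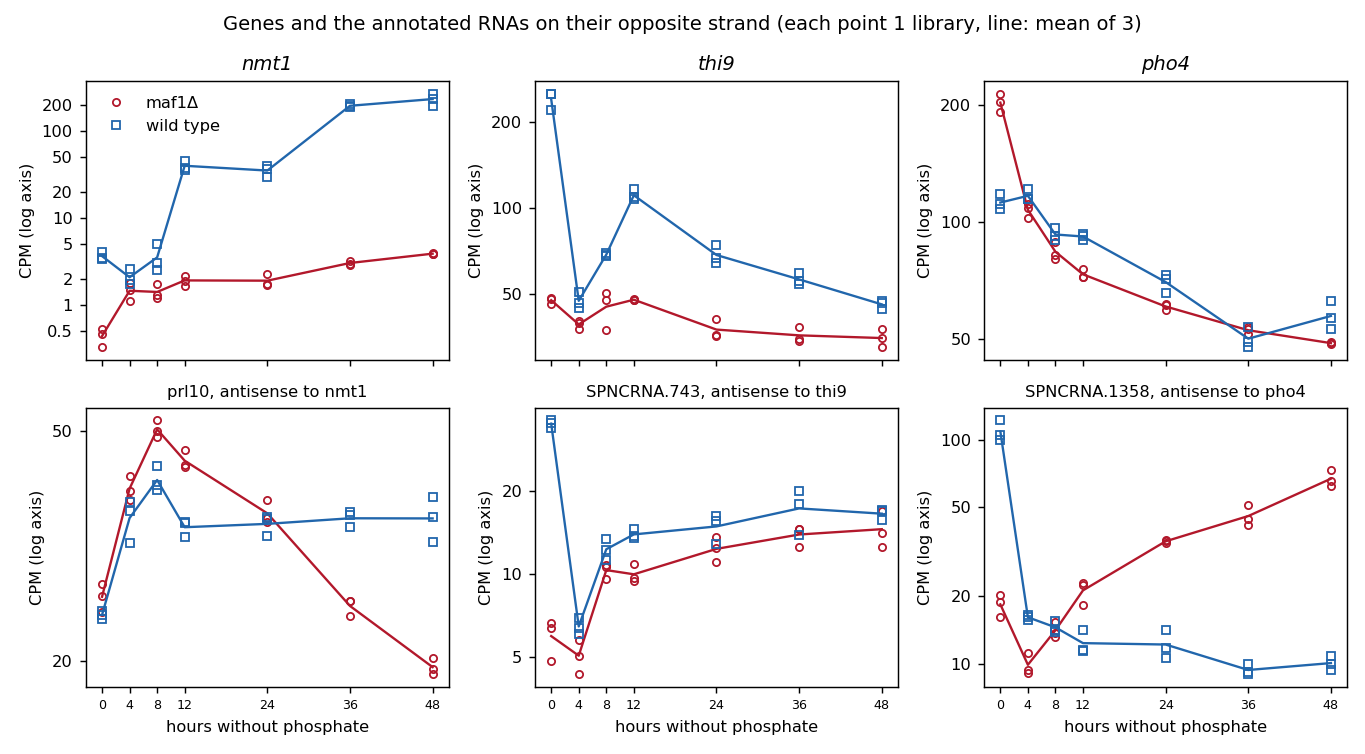
CPM (y axes, log scale, each panel its own range) of nmt1, thi9 and pho4 in the upper row and of the annotated RNA on the opposite strand below each, against hours without phosphate (x axis), 1 point per library, red circles maf1Δ, blue squares wild type, lines through means of 3. SPNCRNA.743 and thi9 are both highest in wild type at 0 h and differ later, and prl10 stays between 19.0 and 52.1 CPM. Within maf1Δ, SPNCRNA.1358 is higher and pho4 lower at 48 h than at 0 h. Between the strains pho4 differs by less than 2-fold at every time.

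Other genes of the pathway were taken from lists. Of the list on thiamine metabolism and regulation, 3 genes were in the table (thi22 was not matched and was not analysed here). tnr3, whose product makes thiamine diphosphate from thiamine, was called lower than at 0 h at all 6 times in wild type and at none in maf1Δ. The wild-type libraries had 57.1, 62.4 and 60.3 CPM at 48 h against 145, 139 and 161 CPM at 0 h. The maf1Δ libraries had 53.7, 48.2 and 46.8 CPM at 48 h and 64.0, 65.2 and 65.7 CPM at 0 h. The strains differed at 0 h (log2 -1.19, SE 0.047, edgeR adjusted p = 3.08e-23) and in the change at 4 to 12 h over 0 h (log2 1.13, SE 0.055, edgeR adjusted p = 2.50e-20). As with thi9, the wild-type libraries of 0 h stood above all others. SPBC1604.04, a mitochondrial carrier of thiamine diphosphate, fell in maf1Δ at 36 and 48 h and ended at 16.5, 14.1 and 14.4 CPM in maf1Δ, against 36.5, 33.3 and 33.0 CPM in wild type (log2 -1.19, SE 0.076, edgeR adjusted p = 1.04e-16). thi5, which encodes another DNA-binding transcription factor, was called in no comparison with 0 h and in none between the strains.

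A further list, 3 genes annotated as phosphomethylpyrimidine kinases (enzymes of the pyrimidine branch, downstream of Nmt1), was added after the annotation was seen. SPCC18B5.05c had 42.6, 44.3 and 41.2 CPM in maf1Δ at 12 h and 45.4, 40.4 and 37.5 CPM at 0 h. In wild type it had 61.0, 52.1 and 58.3 CPM at 12 h against 22.1, 20.2 and 21.1 CPM at 0 h. It was called higher there than at 0 h at 4, 8, 12 and 24 h. SPBP8B7.18c rose in wild type at 12 h (log2 1.18, SE 0.048, edgeR adjusted p = 5.49e-23). Both changed differently in the strains at 4 to 12 h over 0 h (log2 -1.39, SE 0.078, edgeR adjusted p = 2.08e-18; log2 -1.13, SE 0.054, edgeR adjusted p = 1.59e-20). SPBP8B7.17c was called in no comparison with 0 h and in none between the strains. At 36 and 48 h none of the 3 was called in either strain, unlike nmt1.

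**Figure D5:**
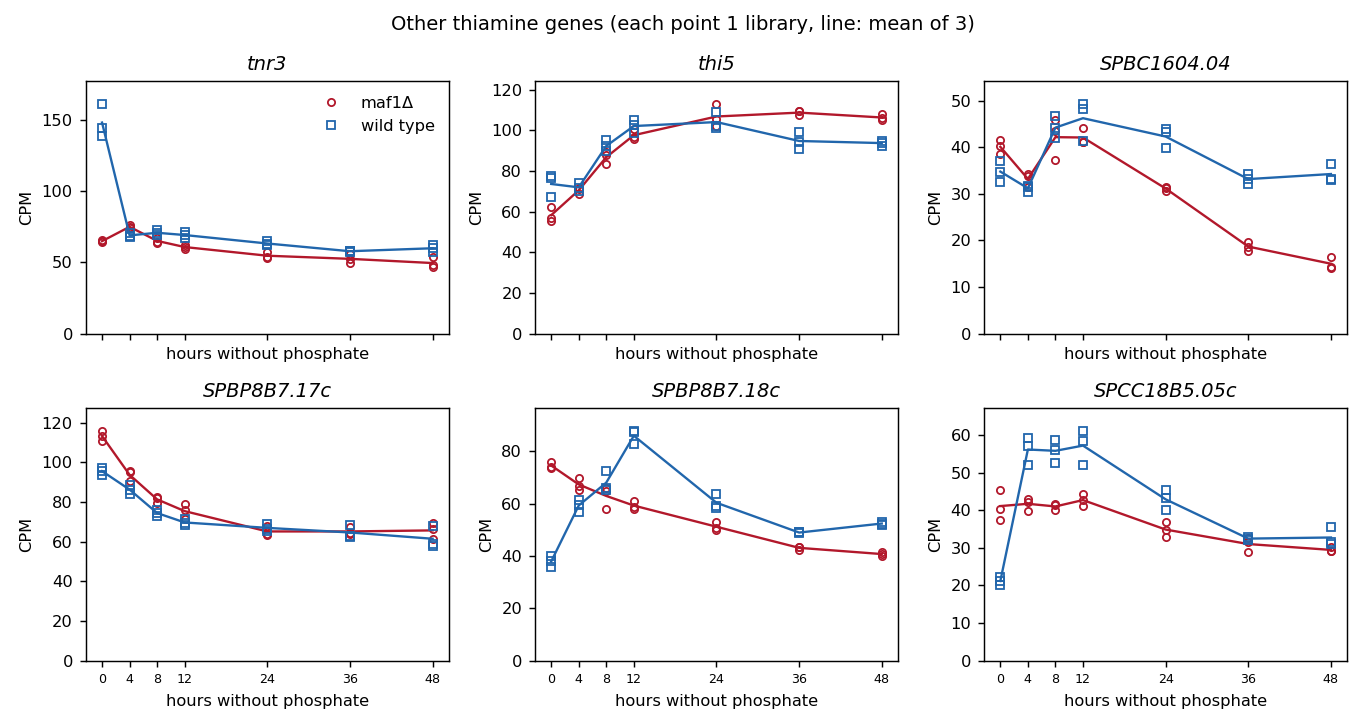
CPM (y axes, linear, from 0, each panel its own range) of tnr3, thi5, SPBC1604.04 and the 3 phosphomethylpyrimidine kinase genes against hours without phosphate (x axis), 1 point per library, red circles maf1Δ, blue squares wild type, lines through means of 3. tnr3 is highest in the wild-type libraries of 0 h, and SPBP8B7.18c and SPCC18B5.05c are low there.

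Of 9 enzymes that use thiamine diphosphate as a cofactor, 1 rose and 1 fell in maf1Δ at 48 h against 0 h and 3 rose and 1 fell in wild type, where 42.3% and 41.8% of all genes were called. Their medians were -0.24 and 0.44 on the log2 scale in maf1Δ and wild type, against -0.03 and 0.00 for all genes. The pyruvate decarboxylase gene pdc201 rose most in both (log2 10.22 in maf1Δ and 8.63 in wild type), and pdc101 fell in maf1Δ (log2 -2.78) and rose in wild type (log2 2.40). The transketolase gene tkt1 rose (log2 1.15) and pdc102 fell (log2 -2.78) in wild type; pdc102 stayed under 1 CPM in every library. Of 12 vitamin B6 genes, 3 rose and 1 fell in maf1Δ at 48 h, and 4 rose and 2 fell in wild type, shares near or below those of all genes, with medians of 0.25 in maf1Δ and 0.89 in wild type. SPBC725.03, a pyridoxamine phosphate oxidase, rose in both (log2 3.71 in maf1Δ and 2.05 in wild type), and so did akr7 (log2 3.69 in maf1Δ and 2.48 in wild type). In maf1Δ SPAC23A1.14c rose (log2 1.08) and the vitamin B6 transporter gene SPCC576.17c fell (log2 -2.21). Neither change was particular to maf1Δ. In wild type SPAC23A1.14c had means of 96.5 CPM at 0 h and 213 CPM over the starved times. SPCC576.17c had means of 9.11 CPM at 0 h and 3.58 CPM at 48 h there. In wild type the pyridoxal reductase gene plr1 rose (log2 2.58) and the pyridoxal phosphate synthase gene snz1 fell (log2 -2.28).

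pho4 was also set beside 3 genes of phosphate supply. pho1, pho84 and tgp1, which encode an acid phosphatase and transporters of phosphate and glycerophosphodiesters, were called higher than at 0 h at all 6 times in both strains. pho1 had a log2 change of 4.24 in maf1Δ and 8.81 in wild type at 48 h over 0 h. Its starting levels differed, with a mean at 0 h of 950 CPM in maf1Δ and 62.1 CPM in wild type. Over the starved times its mean was 22396 CPM in maf1Δ and 25348 CPM in wild type. For pho4, the other acid phosphatase, the log2 change at 48 h over 0 h was -2.06 in maf1Δ and -0.97 in wild type.

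The authors compared the starved maf1Δ samples with wild type at 0 h, which none of the tests above does. In the authors' deposited tables nmt1 had a log2 fold change of -3.10 in maf1Δ at 0 h and of -1.38, -1.41, -0.97, -0.99, -0.29 and 0.07 at 4, 8, 12, 24, 36 and 48 h. In the authors' deposited tables the last 2 of these had adjusted p-values of 0.0921 and 0.696, so nmt1 in the late maf1Δ samples was not told apart there from wild type in rich medium. For thi9 the authors' deposited tables gave -2.40 at 0 h and -2.80 at 48 h.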

How the data were processed

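The authors deposited a table of counts per gene for 42 libraries (14 samples with 3 replicate experiments each, per the series design text) and 13 tables of their own comparisons; the submitters' processing notes list HISAT2 2.1.0, HTSeq 0.10.0, SAMtools, DESeq2 and, as build, ASM294v2. The libraries were stranded and paired-end, per the labels' protocols; counting strand and treatment of multiply mapping reads are not given in the sources used here. The deposited values were treated as estimated counts: 19110 of 293538 (6.51%) were 0.5 and were set to 0, the others were whole. In the authors' tables, log2 fold changes, p-values and signal (normalised means) are named per the file headers. Whether replicates were separate cultures is not stated, so p-values measure the spread between these libraries.

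The counts were fitted in edgeR 4.0.16 (R 4.3.3; TMM scaling, filterByExpr, quasi-likelihood F test, 1 mean per group, 28 residual degrees of freedom). 6521 genes passed the filter; a call needed a Benjamini-Hochberg adjusted p under 0.05 and at least a 2-fold change. Standard errors were derived from the estimate and its F statistic. Gene names came from the authors' tables, transcript lengths and overlaps from the RefSeq annotation, which matched 6836 of 6988 identifiers and is of another build than the counts; no coordinates or sequences are given. Every one of the 7 genes is named; of the lists, up to 4 called genes with the largest change. Alternatives were DESeq2 1.42.0, other scalings, no filter, each strain alone, a replicate block, leaving out each of 42 libraries and thinned maf1Δ libraries. Replicates of a group differed by more than counting noise. The procedure was tested on simulated counts. The genes and lists were chosen with earlier results of these data known.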

Additional observations from a re-analysis of the deposited data

Results flagged for a closer look

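5 results stand here because the change over time differed between maf1Δ and wild type in a test of the interaction (edgeR, adjusted p under 0.05, at least 2-fold; 3 such tests were made for each of the 7 genes). Such calls were common: of all genes, 31.2% were called for 4 to 12 h over 0 h. The shares were 38.2% for 24 to 48 h over 0 h and 14% for 24 to 48 h over 4 to 12 h. Each value below is the log2 change in maf1Δ minus that in wild type. nmt1 had -2.33 for 24 to 48 h over 0 h (SE 0.38, edgeR adjusted p = 1.01e-06) and -3.30 for 24 to 48 h over 4 to 12 h (SE 0.16, edgeR adjusted p = 5.41e-20). At 24 to 48 h every maf1Δ library of nmt1 was below every wild-type library. thi9 had 1.65 for 4 to 12 h over 0 h (SE 0.083, edgeR adjusted p = 8.14e-20) and 1.71 for 24 to 48 h over 0 h (SE 0.084, edgeR adjusted p = 2.42e-20). pho4 had -1.05 for 4 to 12 h over 0 h (SE 0.055, edgeR adjusted p = 2.97e-19). All but the second value of nmt1 use the 0 h libraries, in which medium, phosphate supply and the strain markers named in the report also differ. Genotype and mating type differ between the strains in all 5 values. Markers of h+ cells also went against the labels at some starved times.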

How the results depend on the processing

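The number of calls stayed within 1.5 times its value under every setting run: 14 to 16 for maf1Δ against its 0 h (15 as reported), 11 to 13 for wild type against its 0 h (12), 7 to 9 for maf1Δ against wild type (8), 0 and 2 for the steps in maf1Δ and wild type, and 5 to 7 for the interaction (5). Of the 42 calls, 4 were lost under some setting: bsu1 in wild type at 12 h and in maf1Δ at 36 h, nmt1 at 8 h between the strains (leaving out 1 library) and pho4 in the interaction. 7 values gained a call, among them thi2, which passed 2-fold in maf1Δ at 24 h under scaling by protein-coding genes (log2 1.03), and between the strains at 0 h (log2 -1.03) and in the interaction (log2 1.13 and 1.14) under scaling by library size alone. No call moved by more than 1.5-fold. 25 of the 224 values changed sign under some setting; none of these was called and the largest was 0.19 (log2), so the text gives no direction for them. Scaling by library size alone moved the median of all genes by up to 0.32 (log2), and by protein-coding genes by up to 0.21; at 0 h between the strains that median was 0.12 as reported and -0.16 and -0.05 under those scalings. Thinning maf1Δ libraries to the wild-type median of 18088943 counts, chosen after seeing the data, turned the sign of 3 of 224 values, none called, and changed no call. The replicate block gave 15, 12, 8, 0, 2 and 5 calls, as without it. Deviations of same-numbered libraries correlated at 0.0840 on average (-0.32 to 0.48), with 41.4% of the pairs over 0.1. Those of differently numbered libraries correlated at -0.0418 on average. Deviations were taken from each group's own mean, so the first average largely sets the second. These values do not settle whether replicate numbers pair the libraries. Low counts limit nmt1 in maf1Δ at 0 h, with 50 counts in 3 libraries that each held 37919700 to 42177359 counts.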
